A study of Mus musculus with 6 samples.

Results

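Ferritin and the genes that move iron into, through and out of the cell were followed in quiescent muscle stem cells (qMuSCs), the resting cells beneath the basal lamina of the muscle fiber that repair it after injury. The set holds 10 of the 31053 genes counted, namely Ftl1, Fth1, Tfrc, Slc11a2, Steap3, Slc40a1, Slc11a1, Hmox1, Ireb2 and Aco1. It was built around Ftl1, which was chosen by its measured values because its counts were lower in the cD2KO mice, so the values of Ftl1 are given below as a description without a test. The other 9 genes were chosen for their role in iron handling, with earlier results of these data already known.

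The RNA of sorted qMuSCs was sequenced from 3 WT and 3 cD2KO mice to ask what the loss of type 2 deiodinase, the enzyme encoded by Dio2 that makes active thyroid hormone, changes in these cells. WT mice were Pax7nGFP/+;Pax7+/+;Dio2Fl/Fl and cD2KO mice were Pax7nGFP/+;Pax7-CreERT2/+;Dio2Fl/Fl, all 3 to 4 months old and all given tamoxifen. Both groups therefore carried the Pax7-nGFP reporter used for the sort, the floxed Dio2 alleles and the drug. Only the cD2KO mice carried Pax7-CreERT2, the Cre recombinase used to remove Dio2 in muscle stem cells. An effect of Cre and an effect of Dio2 loss cannot be told apart in this design.

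Iron enters most cells bound to transferrin, which the transferrin receptor Tfrc takes up into endosomes. There the reductase Steap3 converts it to the ferrous form and the transporter Slc11a2 carries it to the cytosol. Iron that is not used is stored inside ferritin, a hollow shell of light chains (Ftl1) and heavy chains (Fth1), and ferroportin (Slc40a1) is the exporter. Macrophages are rich in this machinery because they recover iron from old red cells, through the heme oxygenase Hmox1 and the phagosomal transporter Slc11a1. The iron regulatory proteins Aco1 and Ireb2 bind a short RNA hairpin, the iron-responsive element, when iron is scarce, which blocks translation of ferritin and ferroportin and protects the mRNA of Tfrc from decay.

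These hairpins are shown because they are the feature that ferritin, ferroportin and the transferrin receptor share. They were read from GENCODE M21 transcripts of the mouse genome build GRCm38 (mm10) as a C, 5 bases of stem, the loop CAGTGN with a last base other than G, and 5 bases that pair with the stem, G-U pairs included. The loop is in capitals, and each sequence runs 5′ to 3′ on the strand of its gene.

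Ftl1, 5′ UTR, chr7:45459778-45459807, minus strand: gtcttgcttcaaCAGTGTttgaacggaaca
Fth1, 5′ UTR, chr19:9982732-9982761, plus strand: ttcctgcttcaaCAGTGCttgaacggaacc
Slc40a1, 5′ UTR, chr1:45925464-45925493, minus strand: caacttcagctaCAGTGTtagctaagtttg
Tfrc, 3′ UTR, chr16:32631219-32631248, plus strand: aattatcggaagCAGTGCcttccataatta
Tfrc, 3′ UTR, chr16:32631598-32631627, plus strand: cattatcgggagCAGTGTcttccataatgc
Tfrc, 3′ UTR, chr16:32631663-32631692, plus strand: ctatatcggagaCAGTGAtctccatatgtt
Tfrc, 3′ UTR, chr16:32631710-32631739, plus strand: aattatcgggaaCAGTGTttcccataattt

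Ftl1, Fth1 and Slc40a1 held 1 match each in the 5′ UTR, and Tfrc held 4 in the 3′ UTR. The other members held none by this rule, which says only that this exact pattern of loop and paired stem was not found in those transcripts. Hairpins with a stem or loop of another form were not searched for. The lack of a match therefore does not show that a member, Slc11a2 included, has no iron-responsive element. Of 21901 protein-coding genes, 0.105% held a match in a 5′ UTR and 0.457% in a 3′ UTR.

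The libraries held between 2184073 and 3897787 counts, with 13985 to 15491 genes detected, and 3 counts corresponded to 0.773 to 1.37 CPM. CPM here is each count divided by a library size scaled by TMM and put on the usual CPM basis, where TMM evens out differences in RNA composition between libraries. The Dio2 counts, the check of the knockout, were 21, 5 and 10 in WT and 15, 5 and 1 in cD2KO. They overlapped, and at 6.83 CPM the top value was in the library labelled fl125, so the Dio2 counts do not separate the groups, and whether the counted reads come from the floxed exon was not tested. Whether the label of fl125 is right cannot be settled from these counts, so values without fl125 are given for the genes it moves most. On the first principal component fl125 lay at 72.6, with the other libraries between -50.7 and 7.52. The muscle stem cell markers were present in every library, at 1729 to 3087 summed CPM over 12 genes, and the lineage marker Pax7 lay between 213 and 691 CPM. Other cells were present too. The summed CPM of 20 macrophage markers was 4340, 8152 and 5349 in WT and 237, 2259 and 2531 in cD2KO, with every cD2KO library below every WT library and fl125 lowest. All 20 had log2 fold changes below 0 in cD2KO, and 6 of them fell by the test given next. In fl125 Cd14, Msr1 and Cx3cr1 had 0 counts, while Lyz2 had 187 and C1qa 98. In no marker gene of this list were all libraries at 0.

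Across 11633 genes tested, 1391 or 12.0% had an unadjusted p under 0.05 (edgeR), 770 (6.62%) lower and 621 (5.34%) higher in cD2KO, and 1 gene or 0.00860% passed an adjusted p under 0.05. All cD2KO mice lay below all WT mice in 10% of the genes and above them in 8.05%. All 10 iron genes passed the minimum of a mean normalized count above 10. None of the 9 other than Ftl1 passed the unadjusted p under 0.05, in either direction, in edgeR, DESeq2 or limma voom. Their log2 fold changes were below 0 in 9 of 9, with a median of -0.61. Over all genes the median was -0.02 and 51.9% were below 0. The genes were not chosen blind to these values, so the common sign is a description.

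**Figure D1:**
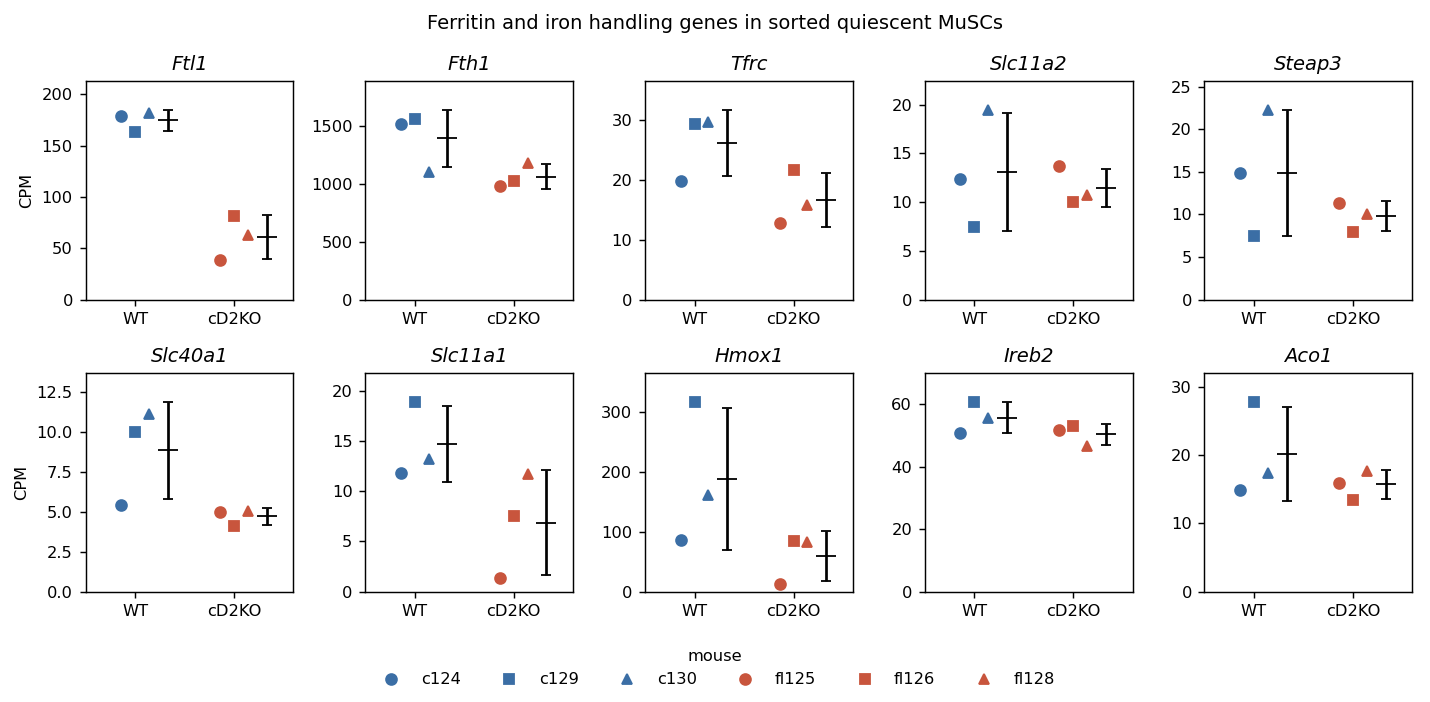
CPM of each of the 10 genes in each mouse (blue WT, red cD2KO, a marker shape per mouse), with the mean and SD over 3 mice beside the points. Ftl1 stands at 163 to 182 CPM in WT and 38.3 to 81.5 CPM in cD2KO, while the groups overlap in Fth1, Tfrc, Slc11a2, Steap3, Ireb2 and Aco1.

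Ftl1 (ENSMUSG00000050708, chr7:45457944-45459884, minus strand), the light chain of ferritin, was counted at 179, 163 and 182 CPM in the WT mice and 38.3, 81.5 and 62.8 in the cD2KO mice. The groups were apart, with the highest cD2KO mouse at less than the lowest WT mouse, and fl125 was the lowest. The means were 175 ± 10.3 CPM in the WT mice and 60.9 ± 21.7 in the cD2KO mice (SD, n = 3), a log2 fold change of -1.52, or 2.86-fold lower. The mice differed more among themselves in cD2KO, where the coefficient of variation was 35.6% against 5.92% in WT. Counting error alone would give 7.6% and 4.25%. Without fl125 the log2 fold change was -1.24, and leaving out other mice gave values from -1.78 to -1.46. Ftl1 shares its sequence with processed copies, so reads could be split among them. Ftl1-ps1 held at most 1 count in any library, and the other annotated copies are not analysed here.

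Fth1 (ENSMUSG00000024661, chr19:9980598-9985098, plus strand), the heavy chain that carries the iron-oxidizing site of ferritin, was at 1513, 1555 and 1104 CPM in the WT mice and 977, 1023 and 1182 in the cD2KO mice. The groups overlapped, since fl128 was above c130. The log2 fold change was -0.39 ± 0.21 (SE), and its 95% interval ran from -0.84 to 0.05 (edgeR quasi-likelihood test, adjusted p = 0.494). Fth1 also has processed copies that the counting could have split.

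The light chain was therefore lower relative to the heavy chain in these libraries. Ftl1 counts per 100 Fth1 counts were 11.9, 10.5 and 16.5 in WT and 3.92, 7.97 and 5.32 in cD2KO. All cD2KO libraries were below all WT libraries, which follows in part from the choice of Ftl1. Ferritin chains together took 0.169, 0.178 and 0.131% of counts in WT and 0.102, 0.108 and 0.117% in cD2KO. The testis-type heavy chains Fthl17a to Fthl17f and the mitochondrial ferritin Ftmt had 0 counts in all 6 libraries.

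**Figure D2:**
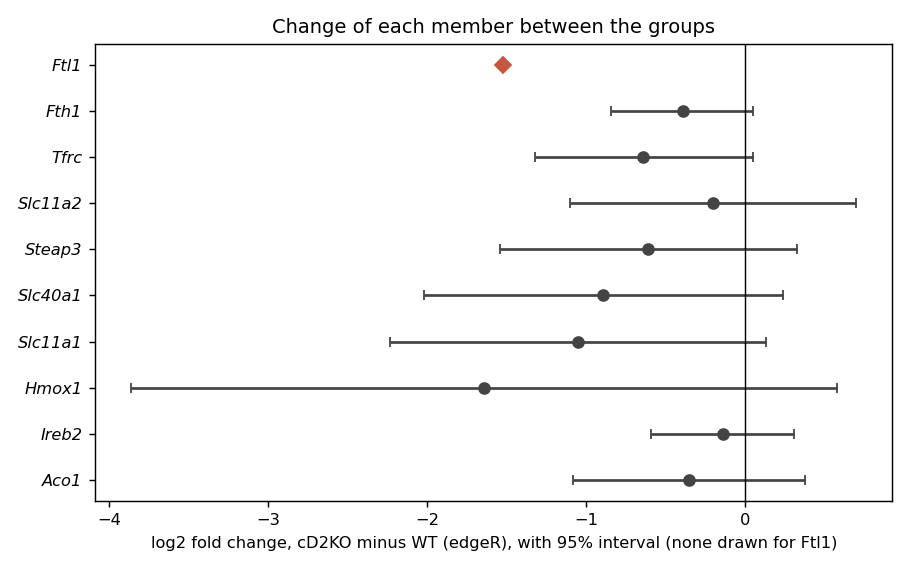
The log2 fold change of each gene, cD2KO minus WT, from edgeR, with 95% intervals as bars (none is drawn for Ftl1, which was chosen by this value). Every point lies left of 0, and each interval shown reaches past 0.

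Of the uptake genes, Tfrc (ENSMUSG00000022797, chr16:32608920-32632794, plus strand) was at 19.8, 29.3 and 29.6 CPM in the WT mice and 12.8, 21.7 and 15.8 in the cD2KO mice. The ranges overlapped, with fl126 above c124. Between the groups it differed by a log2 fold change of -0.64 ± 0.32 (SE), and the 95% interval of -1.32 to 0.05 includes 0 (edgeR, adjusted p = 0.466). Tfrc had a lower p than 0.05 in 2 of the settings that leave out a mouse, without c124 (-0.81) and without fl126 (-0.87), and in no other setting. Without fl125 the log2 fold change was -0.44, the smallest difference among the settings that leave out a mouse.

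Slc11a2 (ENSMUSG00000023030, chr15:100387898-100425072, minus strand) was at 12.4, 7.43 and 19.5 CPM in the WT mice and 13.7, 9.97 and 10.7 in the cD2KO mice. The cD2KO mice all lay inside the WT range. Its log2 fold change of -0.20 ± 0.42 (SE, adjusted p = 0.909, edgeR) turned to 0.22 without c130. Slc11a2 overlaps Gm5475 on the opposite strand, which had at most 9 counts, and whether the counting used strand is not given in the sources used here.

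Steap3 (ENSMUSG00000026389, chr1:120190757-120272705, minus strand) was at 14.9, 7.43 and 22.3 CPM in the WT mice and 11.4, 7.91 and 10.1 in the cD2KO mice. Here too the WT mice were more spread than the cD2KO mice and enclosed them. Its log2 fold change was -0.61 ± 0.44 (SE, adjusted p = 0.64, edgeR), but -0.18 without c130 and -0.90 without c129.

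Of the exporter and the genes of iron recovery from red cells, Slc40a1 (ENSMUSG00000025993, chr1:45908068-45926523, minus strand) was at 5.41, 10 and 11.1 CPM in the WT mice and 5.01, 4.13 and 5.05 in the cD2KO mice. All cD2KO mice lay below all WT mice, but c124 and fl128 were apart by 5.41 against 5.05 CPM, at 21 and 16 counts, where counting error alone gives a coefficient of variation of 19.4 to 27.7%. For the exporter this gave a log2 fold change of -0.89 ± 0.53 (SE, adjusted p = 0.539, edgeR).

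Slc11a1 (ENSMUSG00000026177, chr1:74375195-74386062, plus strand) was at 11.8, 18.9 and 13.2 CPM in the WT mice and 1.37, 7.57 and 11.7 in the cD2KO mice. The closest mice nearly touched, and fl125 held 3 counts. This made a log2 fold change of -1.05 ± 0.55 (SE, adjusted p = 0.488, edgeR), -0.56 without fl125 and -1.65 without fl128.

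Hmox1 (ENSMUSG00000005413, chr8:75093621-75100589, plus strand) was at 87, 317 and 161 CPM in the WT mice and 12.3, 83.9 and 82.7 in the cD2KO mice. The groups did not overlap, yet the lowest WT mouse stood beside the pair of higher cD2KO mice. Mice of 1 group differed widely, with coefficients of variation of 62.4% in WT and 68.8% in cD2KO. Its log2 fold change was therefore -1.64 with a SE of 0.85 (adjusted p = 0.545, edgeR), -1.0 without c129 and -1.13 without fl125. Slc40a1, Slc11a1 and Hmox1 are 3 of the 9 genes tested in which all cD2KO mice lay below all WT mice, where 10% of all genes do so.

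The constitutive isozyme Hmox2 was at 64.4 ± 8.7 CPM in the WT mice and 50.3 ± 7.99 in the cD2KO mice (SD, n = 3; adjusted p = 0.563, edgeR). Hmox1 made up 54.2, 83.4 and 74% of the Hmox1 and Hmox2 counts in WT and 18.2, 60.5 and 66.8% in cD2KO. These shares overlapped between the groups, and fl125 was the lowest.

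The iron sensors were close to even between the groups or set by 1 mouse. Ireb2 (ENSMUSG00000032293, chr9:54863789-54912530, plus strand) was at 50.7, 60.9 and 55.7 CPM in the WT mice and 51.9, 53 and 46.7 in the cD2KO mice, a log2 fold change of -0.14 with a 95% interval of -0.59 to 0.31 (adjusted p = 0.861, edgeR). The groups overlapped. Aco1 (ENSMUSG00000028405, chr4:40143081-40198338, plus strand), the cytosolic aconitase that turns into an RNA-binding protein when it lacks its iron-sulfur cluster, was at 14.9, 27.8 and 17.4 CPM in the WT mice and 15.9, 13.4 and 17.7 in the cD2KO mice. Only c129 stood apart, and without it the log2 fold change of -0.35 ± 0.34 (SE, adjusted p = 0.752, edgeR) was -0.02.

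Genes were also compared per kilobase of exon, merged over all annotated transcripts of a gene. The transcripts in these cells may be shorter, so this comparison is rough. Fth1 was the highest, at 401 CPM per kb in WT and 306 in cD2KO. Ftl1 followed at 130.5 and 45.4, and Hmox1 at 108 and 34.1. In WT these neighbours overlapped, with Ftl1 at 122 to 136 and Hmox1 at 49.7 to 181 CPM per kb. The other genes were at 5.88 CPM per kb (Ireb2) or less, down to 0.984 in WT and 0.526 in cD2KO for Slc40a1, so the mRNA level of the ferritin chains per length was far above that of the transporters that carry iron in or out.

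**Figure D3:**
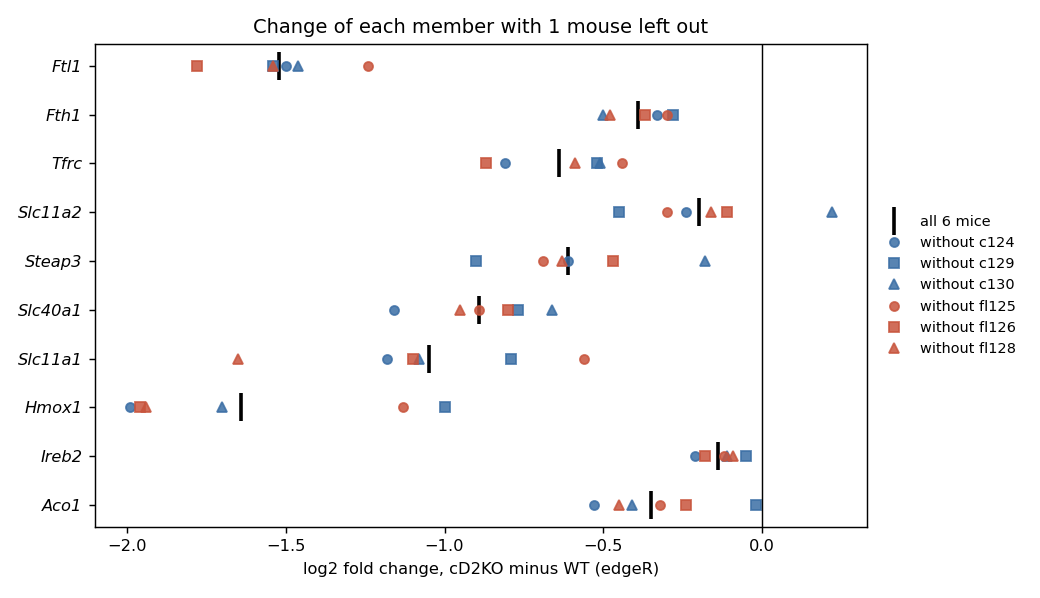
The log2 fold change of each gene with all 6 mice (black bar) and with 1 mouse left out (blue WT, red cD2KO, shapes per mouse). Ftl1 stays between -1.78 and -1.24, while Slc11a2 crosses 0 without c130 and Aco1 reaches -0.02 without c129.

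The lower macrophage markers in cD2KO moved with several iron genes, and in bulk RNA fewer cells of a type and less RNA per cell cannot be told apart. Ftl1 counts per 100 macrophage marker counts were 4.14, 2.00 and 3.40 in WT and 16.1, 3.61 and 2.48 in cD2KO. Apart from fl125, in which the macrophage markers summed to 237 CPM while Ftl1 was at 38.3 CPM, these ratios overlapped between the groups. Hmox1 was at 2.01, 3.89 and 3.01 per 100 marker counts in WT and 5.18, 3.71 and 3.27 in cD2KO. Slc11a1 was at 0.273, 0.232 and 0.247 in WT and 0.576, 0.335 and 0.462 in cD2KO.

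On this scale no cD2KO mouse was below the WT range in Hmox1, and all of them were above it in Slc11a1. Slc40a1 was at 0.125, 0.123 and 0.208 in WT and 2.11, 0.183 and 0.200 in cD2KO, where fl126 and fl128 lay inside the WT range and fl125 above it. Fth1 was at 34.9, 19.1 and 20.6 in WT and 412, 45.3 and 46.7 in cD2KO. Tfrc was at 0.457, 0.360 and 0.553 in WT and 5.37, 0.959 and 0.624 in cD2KO. Fth1 and Tfrc were thus above WT in every cD2KO library, as Slc11a1 was. The scale is a ratio and therefore also moves with the markers themselves. The part of macrophage RNA in the lower Ftl1, Hmox1, Slc11a1 and Slc40a1 was not tested.

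**Figure D4:**
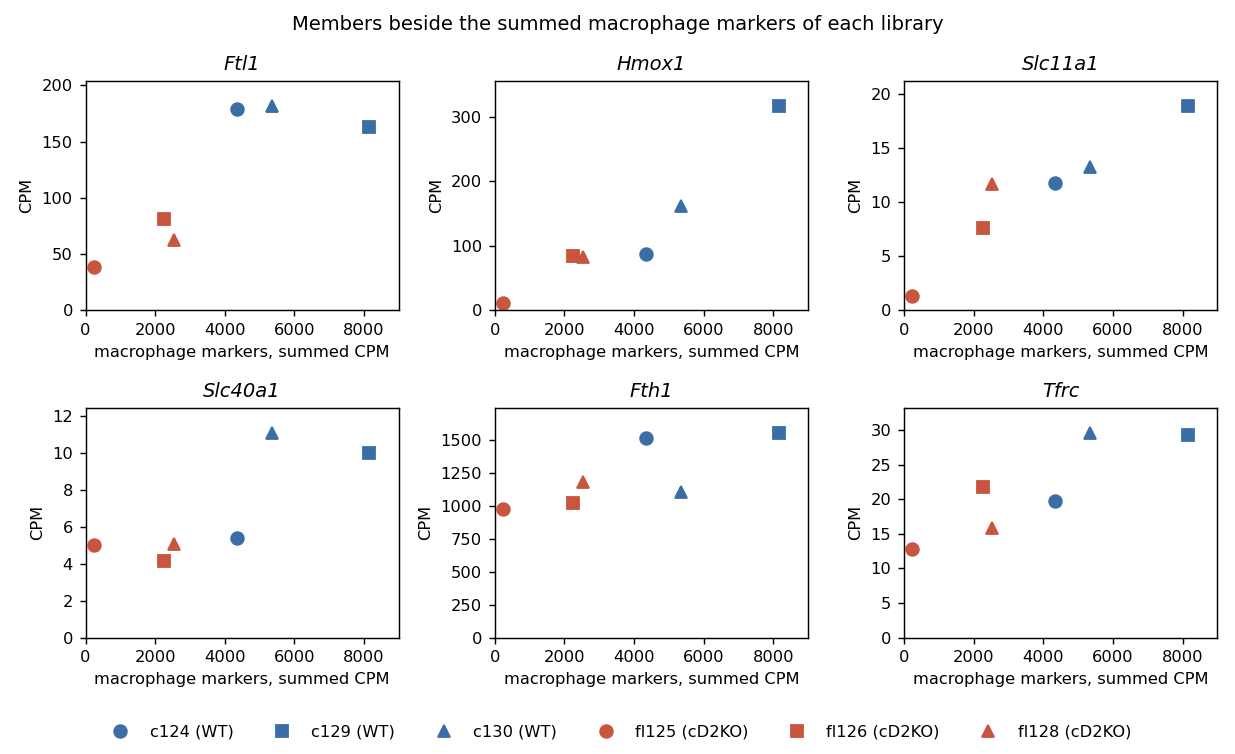
CPM of Ftl1, Hmox1, Slc11a1, Slc40a1, Fth1 and Tfrc against the summed CPM of 20 macrophage markers, 1 point per mouse (blue WT, red cD2KO). The cD2KO mice lie at 237 to 2531 summed CPM and the WT mice at 4340 to 8152, and fl125 has the lowest value in every panel but that of Slc40a1.

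In summed CPM the other marker lists gave smaller or opposite differences. The summed CPM of endothelial markers was 256 to 365 in WT and 204 to 254 in cD2KO, and 6 of the 9 tested fell. Esam, a large part of that sum, had a mean of 117 CPM in WT and 146 in cD2KO. Of the 9 tested, 7 had log2 fold changes below 0. The median was -1.28, against -1.96 for the macrophage markers. The sum of mural cell markers was higher, at 5514 to 9403 in WT and 11255 to 16476 in cD2KO, with 5 of 10 rising. Those were Myh11, Acta2, Tagln, Cnn1 and Mcam. Rgs5, Cspg4, Pdgfrb, Kcnj8 and Abcc9 overlapped between the groups, with log2 fold changes from -0.36 to 0.25. The sums of fibroadipogenic, myofiber, Schwann and muscle stem cell markers overlapped between the groups. Fibroadipogenic markers summed to 4008 to 6425 in WT and 2478 to 5372 in cD2KO, and 2 of 9 fell and 1 rose. Of those 9, 7 had log2 fold changes below 0, with a median of -0.53. Myofiber markers summed to 2097 to 4744 in WT and 3654 to 7155 in cD2KO, with 0 of 10 called. Of those 10, 0 had log2 fold changes below 0, and the median was 0.52. Schwann markers summed to 4379 to 6794 in WT and 6076 to 6982 in cD2KO, and 1 of 6 fell. Of 12 muscle stem cell markers, 1 fell and 3 rose. Erythroid markers, of the lineage that uses most of the body's iron, summed to 10702 to 16679 CPM in WT and 3439 to 22463 in cD2KO, with 0 of 7 tested called and Rhag at 0 in all libraries. Alas2, the heme synthesis enzyme of red cell precursors and itself one of these markers, was at 27.8 CPM in fl125 and 245 in fl128.

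Genes of iron and heme handling other than the 10 were taken from 7 lists. Of 108 genes found in the table, 92 were tested, of which 5 rose, 6 fell and 81 were not called, with a median log2 fold change of 0. The share called, 12.0%, is that of all genes (12.0%), and 0 had an adjusted p under 0.05. Iron import had 3 of 11 lower and none higher, the most in any list in 1 direction. Over all genes 6.62% were lower. The list is named because it was the highest of 7, and it was not tested as a set.

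Trf, transferrin itself, was at 199, 346 and 271 CPM in the WT mice and 57.8, 76 and 130.4 in the cD2KO mice. All cD2KO mice lay below all WT mice, and the log2 fold change was -1.62 ± 0.30 (SE, adjusted p = 0.0885, edgeR). Snx3, a sorting nexin that returns the transferrin receptor to the cell surface, was at 85.9 ± 20.5 CPM in the WT mice and 46 ± 8.69 in the cD2KO mice (SD, n = 3), a log2 fold change of -0.91 (adjusted p = 0.13, edgeR). Tcirg1, a subunit of the proton pump that acidifies vesicles, had a log2 fold change of -0.78 (adjusted p = 0.281, edgeR).

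In heme breakdown and transport, Blvrb, a biliverdin reductase, was at 50, 83.5 and 78 CPM in the WT mice and 18.7, 32.3 and 33.2 in the cD2KO mice, with a log2 fold change of -1.31 ± 0.28 (SE, adjusted p = 0.0921, edgeR). All cD2KO mice lay below all WT mice. Haptoglobin (Hp) was lower by log2 -1.25, with overlapping mice, and the heme transporter Slc48a1 rose by 0.47. Cd163, the macrophage receptor for haptoglobin-bound hemoglobin, which is also one of the macrophage markers, was at 312 ± 158 CPM in the WT mice and 80.8 ± 58.6 in the cD2KO mice (SD, n = 3; adjusted p = 0.492, edgeR).

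In iron sensing, Hif1a rose by 0.55 and Zfp36l1 fell by 0.47 on the log2 scale. In heme synthesis Ppox rose by 0.64. Of the mitochondrial iron and iron-sulfur genes, Isca1 rose by 0.64 (adjusted p = 0.249, edgeR) and Narfl by 0.85 (adjusted p = 0.417, edgeR). They were the 2 called of 34 tested, or 5.88%, against 12.0% of all genes. Narfl was at 5.67 CPM in c124, and at 14.5 and 16.4 in c129 and c130. The ferritin partners did not pass the test, with the autophagy receptor for ferritin, Ncoa4, at a log2 fold change of 0.03 and the iron chaperone Pcbp1 at -0.29, and 0 of 6 genes of that list were called. Of the export and hepcidin list, 0 of 8 were called, and ceruloplasmin (Cp), the ferroxidase that works with ferroportin, was at -0.47.

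**Figure D5:**
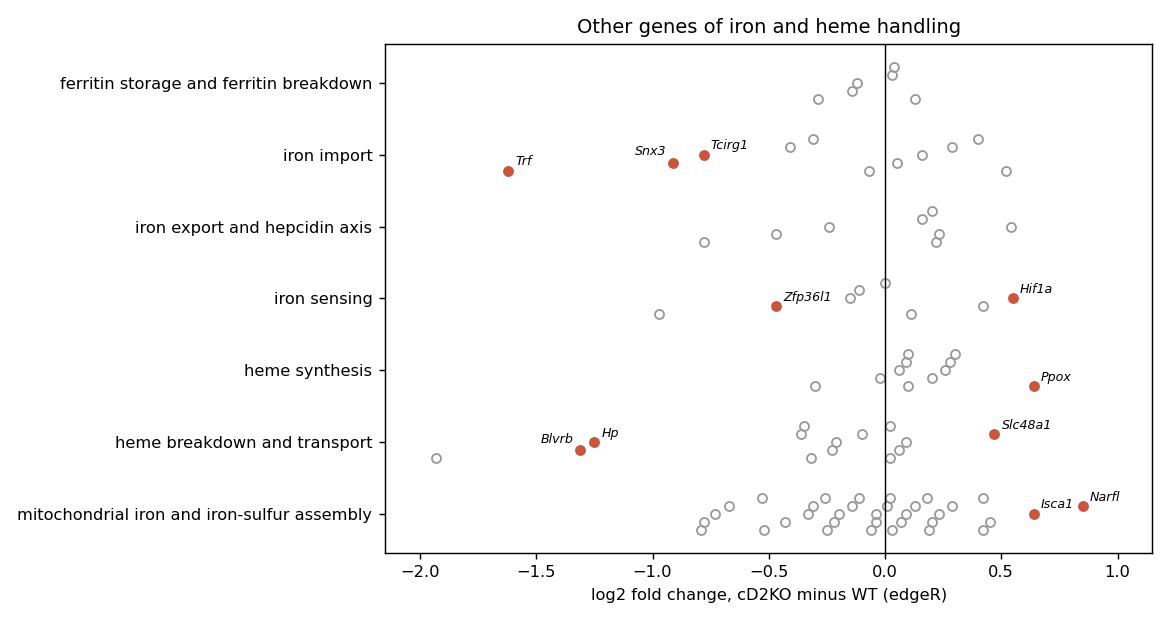
The log2 fold change, cD2KO minus WT, of 92 genes of iron and heme handling by list, with the 11 genes that had an unadjusted p under 0.05 filled and named. Those lower include Trf (-1.62) and Blvrb (-1.31), and those higher include Narfl (0.85) and Isca1 (0.64).

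Of the 6842 genes of at least 20 CPM, those whose log2 CPM was most like that of Ftl1 over the 6 mice were Appl2 (Pearson r = 0.991), Atp6v0e (0.99), Fam49b (0.99), Brd2 (0.987), Rasa3 (0.983), Rbpj (0.983), Dab2 (0.983), Csnk1g3 (0.98), Golph3l (0.976) and Mrfap1 (0.975). Dab2, at 205 to 253 CPM in WT and 27.8 to 80.5 CPM in cD2KO, had the closest size of difference as well. For Hmox1 they were Ctsb, Tfg, S100a10, Dpep1 and Cfb, led by Ctsb at r = 0.996, and for Tfrc they included Cd302, Sulf2, Tmem173 and Angel2, led by Cd302 at r = 0.995. The 6 mice share their groups, libraries and depth, and these values only describe.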

How the data were processed

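RNA from sorted quiescent muscle stem cells of 3 WT and 3 cD2KO mice was measured. The authors deposited raw counts per gene for each mouse, and the submitters' processing notes name bcl2fastq, STAR 2.6.0a, HTSeq 0.9.1 and the build mm10. The annotation release, the strand setting and the treatment of duplicates are not given in the sources used here, so reads shared with pseudogenes or antisense genes could shift Ftl1, Fth1 and Slc11a2. The libraries held 2184073 to 3897787 counts, and floors on counts cover counting error only. The intervals of the log2 fold changes come from the edgeR fit and include the spread between mice. Of 31053 genes, 11633 had DESeq2-normalized counts that averaged over 10 and were tested with edgeR 4.0.16 (R 4.3.3; TMM, robust quasi-likelihood F test, all 6 mice, no covariate). A call was an unadjusted p under 0.05, as the study used, with Benjamini-Hochberg adjusted p beside it. The tests measure the spread between 3 mice per group. CPM used the TMM-scaled library sizes, and log2 CPM a prior count of 2.

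Members and lists were chosen with earlier results of these data known. Named genes were the 10 members, the called genes of the 7 iron lists (at most 5 per direction and list), the 10, 5 and 5 genes most like Ftl1, Hmox1 and Tfrc, and copies and overlaps of members, apart from a result not reported here. No 2 libraries agreed within sampling noise (lowest chi-square per degree of freedom 8.24 over 15 pairs). Hairpins were matched in GENCODE M21 transcripts, which held 30934 of the genes. The test was checked on simulated counts, and the result of that check is not reported here. Alternatives were DESeq2 1.42.0, limma 3.58.1 voom, other scalings, filters and each mouse left out.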

Additional observations from a re-analysis of the deposited data

How the results depend on the processing

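Of the genes other than Ftl1, 0 were called with all mice; 1 was called with no minimum (Slc11a1, -1.0) and 1 with non-robust estimation (Hmox1, -1.64), and 0 to 1 when a mouse was left out (Tfrc without c124 or fl126, Steap3 without c129 at -0.90, Slc11a1 without fl128), with adjusted p of 0.253 or more throughout. Slc11a2 turned to 0.22 without c130 and ran from -0.45 to 0.22 over the mice left out. With all mice the log2 fold changes were below 0 in 9 of the 9 genes other than Ftl1, where 51.9% of all genes were. Counted with Ftl1, which was chosen for its fall, 6 of 6 were below 0 with a mean count above 50. That count was 9 to 10 of the 10 when a mouse was left out. The genes were not chosen blind to these values, so these counts are a description. Of the other iron genes 11 were called with all mice, and 0 at adjusted p under 0.05. When a mouse was left out 5 to 16 were called (7 without c130, 6 without fl126, 5 without fl128, 16 without fl125). In those settings 9.39, 9.52, 9.24 and 15.5% of all genes were called, against 12.0% with all mice. The causes were not tested. Over all genes DESeq2 called 276 at an adjusted p under 0.05 against 1 with edgeR. With edgeR the number was 303 without fl125 and 510 with no minimum. No paired analysis was possible because the labels give the mice different names and no shared replicate numbers. Counts of 3 to 64 limit Slc11a1, Slc11a2, Slc40a1 and Steap3.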

Other observations

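Genes other than the 10 with a match to the same hairpin were counted in the same test. Of those with a match in a 5′ UTR, 15 were tested, 1 was lower in cD2KO (Egfl7, an endothelial gene, named after its values were seen) and 0 higher, with a median log2 fold change of 0.02. Of those with a match in a 3′ UTR, 71 were tested, 5 lower and 5 higher, with a median of 0.06. Both counts are near the shares over all genes tested, of which 6.62% were lower and 5.34% higher.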
